A study of Mus musculus with 62 samples.

Results

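The regions described here are sites in haematopoietic stem and progenitor cells (HSPCs) that carried less acetylation of lysine 27 of histone H3 (H3K27ac) and more trimethylation of the same lysine (H3K27me3) in Daxx-KO than in WT mice at 24 weeks post induction (w.p.i.). They were chosen by the measured values themselves. A H3K27ac site was taken when its value in each Daxx-KO mouse was under that in each WT mouse, and when it shared at least 1 bp with a H3K27me3 site ordered the opposite way. Of 193657 listed H3K27ac sites, 5419 met this rule and are called loss-gain sites. The rule used both marks at 24 w.p.i., so the values of these marks at the sites are given as a description and without a test.

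Both marks were measured by CUT&Tag, in which an antibody directs a transposase to cut and tag the DNA beside its target, in lineage-negative c-Kit+ bone marrow cells from 2 Daxx-KO (Daxx F/F Cre +/-) and 2 WT (Daxx +/+ Cre +/-) C57BL/6 mice. The same 4 mice also gave H3.3, Pu.1 and H3K9me3 libraries at 24 w.p.i. Other mice gave 2 Daxx-KO and 2 WT libraries each for H3K27ac, H3.3, Pu.1 and H3K9me3 at 3 w.p.i., and 3 WT, 3 Daxx-KO and 3 DKO H3K27me3 libraries at 8 w.p.i. DKO mice were Cre +/- and carried floxed alleles of both genes (Daxx F/F and Pu.1 F/F). The labels do not name the Cre driver. The study's methods give Mx1Cre, induced with pI:pC, for the 24 w.p.i. mice and for DKO, and this driver deletes in blood cells and also outside them. WT mice carried Cre as well. Every group was a bulk population, so fewer cells of a type and less of a mark per cell cannot be told apart.

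Acetylation of H3K27 marks promoters and enhancers in use and is written by the acetyltransferases p300 and CBP. Trimethylation of the same residue is written by the Polycomb complex PRC2 through its enzyme Ezh2, spreads over broad domains and is found at silent developmental and lineage genes. One lysine cannot carry both, so the marks are often opposed along the genome. In blood progenitors, Polycomb holds lymphoid and other lineage genes silent until the cell commits. Daxx is a chaperone of the histone variant H3.3, and Pu.1, encoded by Spi1, is the transcription factor that directs myeloid and B-cell fates.

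Reference sequence (RefSeq, GRCm38.p6, plus strand) at the middle of the stretch shared by both marks is shown for the 3 promoter and the 3 distal sites at which the smaller of the 2 differences between groups was largest, with windows at 2 genes of the B lineage added after their values were seen. Capitals mark CpG dinucleotides, which Polycomb-bound promoters are often rich in.
Site nearest to Cep78, at the start of the transcript AC136453.1 (chr19:16026151-16026400): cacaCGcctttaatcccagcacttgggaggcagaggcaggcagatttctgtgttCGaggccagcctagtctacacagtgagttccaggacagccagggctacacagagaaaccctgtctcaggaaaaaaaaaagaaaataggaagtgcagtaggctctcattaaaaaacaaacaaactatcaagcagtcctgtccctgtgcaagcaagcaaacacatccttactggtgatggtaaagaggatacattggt
Maco1 promoter (chr4:134852051-134852200): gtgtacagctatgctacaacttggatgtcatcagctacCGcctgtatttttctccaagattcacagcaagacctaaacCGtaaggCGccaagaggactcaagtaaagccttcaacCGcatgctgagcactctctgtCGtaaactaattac
Glb1l2 promoter (chr9:26791301-26791600): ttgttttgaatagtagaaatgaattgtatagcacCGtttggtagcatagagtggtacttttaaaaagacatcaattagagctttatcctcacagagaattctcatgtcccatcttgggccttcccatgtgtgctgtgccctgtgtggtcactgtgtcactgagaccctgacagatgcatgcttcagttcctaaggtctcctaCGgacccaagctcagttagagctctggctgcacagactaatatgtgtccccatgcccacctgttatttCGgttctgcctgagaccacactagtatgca
Kif6 intron (chr17:49740676-49740975): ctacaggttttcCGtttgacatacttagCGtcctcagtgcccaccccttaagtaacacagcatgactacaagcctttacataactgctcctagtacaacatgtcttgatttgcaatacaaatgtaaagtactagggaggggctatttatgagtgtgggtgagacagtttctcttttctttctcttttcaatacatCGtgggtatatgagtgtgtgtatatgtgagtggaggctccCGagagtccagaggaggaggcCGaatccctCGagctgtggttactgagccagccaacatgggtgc
Xrn1 intron (chr9:95980201-95980500): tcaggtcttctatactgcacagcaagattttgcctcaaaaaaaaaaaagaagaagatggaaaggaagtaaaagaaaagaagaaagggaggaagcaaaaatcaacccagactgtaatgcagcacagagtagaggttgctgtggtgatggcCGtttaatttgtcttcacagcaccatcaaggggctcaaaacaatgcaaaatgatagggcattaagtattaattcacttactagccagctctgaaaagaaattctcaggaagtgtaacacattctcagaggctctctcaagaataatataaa
Intergenic site, nearest to Atp23 (chr10:126529076-126529375): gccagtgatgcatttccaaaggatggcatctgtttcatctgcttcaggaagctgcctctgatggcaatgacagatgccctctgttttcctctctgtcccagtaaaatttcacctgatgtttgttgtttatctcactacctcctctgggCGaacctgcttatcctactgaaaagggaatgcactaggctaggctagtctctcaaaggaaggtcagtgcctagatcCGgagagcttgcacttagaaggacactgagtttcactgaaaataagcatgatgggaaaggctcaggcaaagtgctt
Irf8 locus (chr8:120744776-120745075): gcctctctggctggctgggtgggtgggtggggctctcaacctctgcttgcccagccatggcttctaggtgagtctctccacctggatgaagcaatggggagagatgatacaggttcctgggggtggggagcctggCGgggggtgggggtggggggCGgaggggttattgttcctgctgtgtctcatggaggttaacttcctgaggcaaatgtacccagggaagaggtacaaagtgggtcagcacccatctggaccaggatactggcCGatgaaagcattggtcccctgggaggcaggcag
Ikzf3 promoter (chr11:98547126-98547425): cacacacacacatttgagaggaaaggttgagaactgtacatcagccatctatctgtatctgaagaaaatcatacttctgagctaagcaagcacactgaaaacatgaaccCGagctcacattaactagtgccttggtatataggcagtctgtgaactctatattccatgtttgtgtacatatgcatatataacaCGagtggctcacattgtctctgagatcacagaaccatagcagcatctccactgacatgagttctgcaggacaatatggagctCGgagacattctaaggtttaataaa

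Over the 6 windows of the strongest sites, CpG counts ran from 1 in Xrn1 to 6 in Kif6. The site nearest to Cep78 lay 700 bp from the start of AC136453.1 and 41162 bp from that of Cep78. Soft-masked repeats covered 48% of that site. Core binding words were searched on both strands. The Pu.1 word GAGGAAGT and the AP-1 word TGACTCA were in none of the 8 windows, the Runx word TGTGGT was in those of Glb1l2, Kif6 and Xrn1, and the GATA word AGATAA was in that of Atp23.

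The label checks came first. Within Daxx (chr17:33909414-33915590), H3K27ac from 33909801 to 33913400 was 113 and 93.7 normalized counts in Daxx-KO against 858 and 368 in WT. The site at its start was higher in Daxx-KO, at 1570 and 1036 against 775 and 581. The floxed exons lie inside the gene, where H3K27ac was lower. Of the sites at the end of the gene, that at 33914651-33916950 was higher in Daxx-KO, at 1875 and 1617 against 712 and 914, and one that overlaps it and lies past the gene, 33916551-33917700, was lower, at 130 and 108 against 250.2 and 233. Depth differed between libraries, with a mean of 1.11 to 33.8 reads per 600-bp window over all libraries used. A normalized count is the number of reads at a site divided by a constant the authors estimated for each library.

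Sites at markers of other blood cells also differed. At the erythroid gene Slc4a1 both H3K27ac sites were lower in Daxx-KO, with summed levels of 179 and 176 against 771 and 874 in WT, and at Hba-a1 both were lower, with sums of 18 and 26.4 against 185 and 197. All 7 at the neutrophil markers Ly6g, S100a8 and Camp were higher, with sums of 7852 and 7436 against 3853 and 4361. At the T-cell markers Cd3e, Cd3g and Cd4, 5 of 7 were lower, with sums of 214 and 173 against 346 and 400. The genes differed, since Cd3e had 1 lower and 2 higher sites, with sums of 103 and 77.6 against 83.8 and 64.9. Cd4 had 3 lower sites, with sums of 61.4 and 49.8 against 149 and 206, and Cd3g had 1 lower site. Of the B-cell genes, Cd79a had 2 lower and 2 higher sites, with sums of 791 and 758 against 646 and 418, and Ms4a1 had 2 lower sites, with sums of 38.2 and 57.1 against 125 and 159. At the mast-cell and basophil markers Cpa3 and Mcpt8, 3 of 4 sites were lower, with sums of 193 and 107 against 351 and 350, and Fcer1a had no listed site. The 3 lower sites were all at Mcpt8, with sums of 132 and 70.2 against 334 and 333. The 1 site at Cpa3 was higher, at 61.4 and 36.6 against 16.8 and 16.6. The genes Kit, Cd34, Ptprc and Ly6a, taken here as HSPC markers, had 59 sites, 33 lower and 23 higher, with sums of 9367 and 10127 against 8120 and 9297. Most of these sums came from Ptprc, at 5918 and 6478 against 5010 and 6256. Kit had 2220 and 2264 against 2050 and 1737, and Cd34 1119 and 1307 against 889 and 1092. At Ly6a both sites were lower, with sums of 110 and 77.6 against 171 and 212. The part of these cell types in the values below was not tested.

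Across the 5419 loss-gain sites, H3K27ac had medians of 16.5 and 17.6 normalized counts in Daxx-KO against 64.8 and 57.8 in WT. H3K27me3 had medians of 108 and 116 in Daxx-KO against 55.1 and 52.8 in WT. The libraries of a group lay close together for both marks. The acetyl difference was the larger one, with a median log2 ratio of -1.82 (10th to 90th percentile -3.17 to -1.08), while that of H3K27me3 was 1.03 (0.60 to 1.71). H3K27ac differed at least 4-fold between group means at 2222 sites (41%), and H3K27me3 at 253 (4.67%). With a pseudocount of 1, as used for all log2 ratios here, both marks differed at least 2-fold at 2624 sites (48.4%). The sizes of both differences had next to no correlation, with a Pearson r of 0.02 and a Spearman rho of 0.01 across the 5419 sites, which come from the same 4 mice. The rule fixed the direction of both differences, so these values cannot show whether the marks change together.

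**Figure D1:**
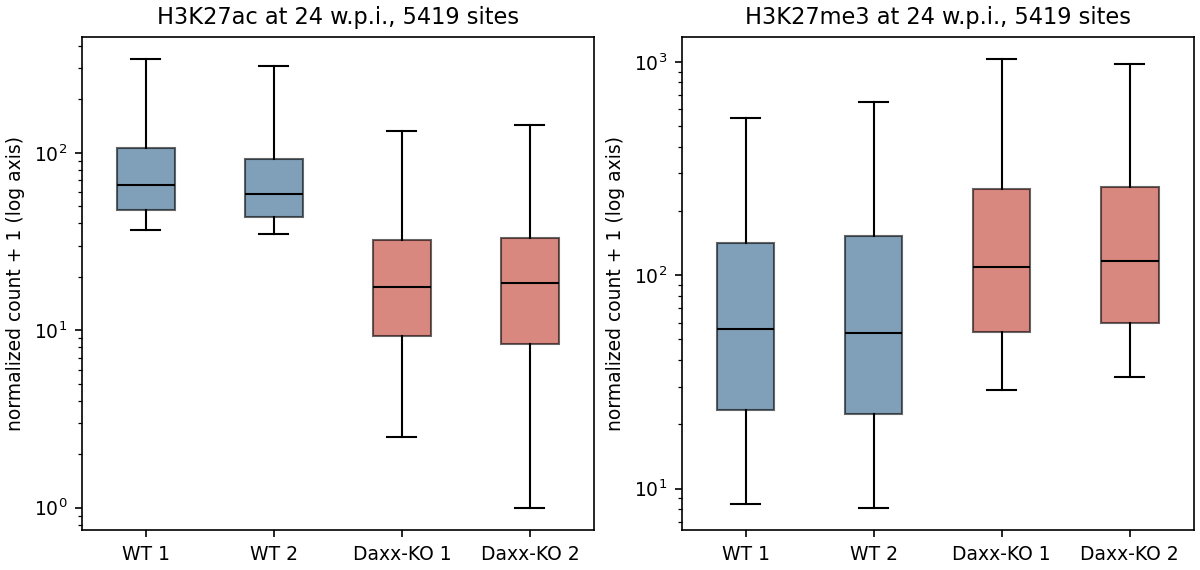
Normalized counts plus 1 (log axis) of H3K27ac (left) and H3K27me3 (right) at the 5419 loss-gain sites in each library at 24 w.p.i. Boxes span the quartiles with the median as a line, and whiskers the 5th to 95th percentile. H3K27ac is low and H3K27me3 high in both Daxx-KO libraries, as the choice of sites requires.

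Both directions of each mark were common in the tables. Of all listed H3K27ac sites, 56% were lower and 41.3% higher in both Daxx-KO mice than in both WT mice, and of 134001 H3K27me3 sites 56.8% were lower and 40.8% higher. Loss-gain sites were 5% of the 108380 H3K27ac losses, and 10.1% of the 54648 H3K27me3 gains overlapped one. H3K27ac losses overlapped a H3K27me3 loss more often, at 13082 sites (12.1%). Among H3K27ac losses with H3K27me3 in 1 direction, 28.6% (95% Wilson interval 28 to 29.3) had a gain, and among H3K27ac gains 23.9% (23.3 to 24.5). Among H3K27ac losses, loss of both marks was thus more frequent than the opposed pair. The other opposed pair, a H3K27ac gain over a H3K27me3 loss, was found at 13931 sites (17.4% of H3K27ac gains). Gain of both marks was found at 4558 (5.7%). Wilson intervals cover counting error only, since neighbouring sites are not independent and all come from 4 mice.

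Just inside the rule lay a site at chr4:137864651-137865450 whose H3K27ac was 22.5 and 39.52 in Daxx-KO against 170 and 39.55 in WT. Just outside lay a site at chr12:111670301-111671150, with 26.98 and 24.9 in Daxx-KO against 181 and 26.90 in WT. The rule divides sites here on values that hardly differ.

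A promoter, within 1 kb of an annotated transcription start site, held 1207 of the loss-gain sites (22.3%, 21.2 to 23.4). Another 613 (11.3%) lay over exons outside promoters, 1642 (30.3%) in introns only and 1957 (36.1%) outside protein-coding genes. Of the 102961 other H3K27ac losses, 16.7% (16.5 to 16.9) lay at promoters and 40.3% in introns. Of the H3K27ac losses with a H3K27me3 loss and no gain, 25.8% (25 to 26.5) lay at promoters. Of all H3K27ac sites, 19.5% lay at promoters. With at least a 2-fold difference asked of both marks, the share of loss-gain sites was 17.5% (16.1 to 19). This interval takes in the share of the other losses, which was not recomputed with a 2-fold limit. Distal loss-gain sites lay a median of 17060 bp from the nearest protein-coding start (quartiles 5555 and 45215 bp).

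Promoter sites carried more of both marks than distal ones. At promoters the median of the group means was 83.1 in WT and 27.4 in Daxx-KO for H3K27ac, and 98.7 and 183 for H3K27me3. At distal sites it was 59.2 and 14.8 for H3K27ac, and 48.6 and 101 for H3K27me3. In ratio the promoters differed less, with median log2 ratios of -1.54 and 0.96 against -1.90 and 1.05.

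The sequence of the sites was a feature the rule did not use. The median GC content was 49.8% (quartiles 46.7 and 53), against 46.5% in the other H3K27ac losses, 49.1% in losses of both marks and 51.8% in H3K27ac gains with a H3K27me3 loss. At promoters it was 52.3% and at distal sites 49.2%. CpG-rich sites, with at least 50 CpG per kb, were 186 of 5419 (3.43%), against 0.728% of other losses and 18.5% of H3K27ac gains with a H3K27me3 loss. Soft-masked repeats covered a median of 13.4% of a site, against 18.3% in other losses. Loss-gain sites shared their base composition with losses of both marks more than with the other losses.

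**Figure D2:**
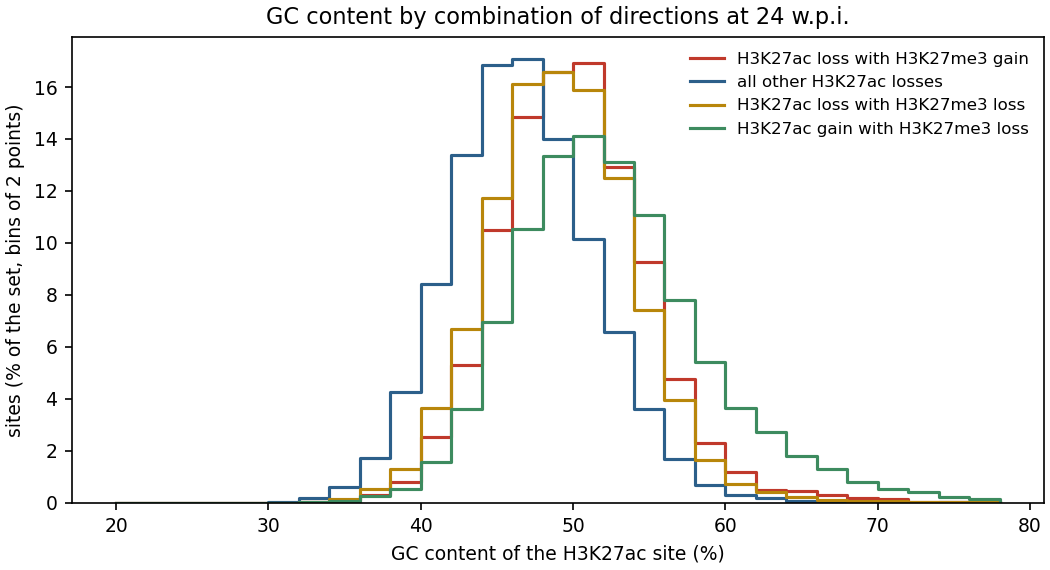
Share of sites (per cent of each set, bins of 2 percentage points) by GC content of the H3K27ac site, for 4 combinations of directions at 24 w.p.i. The loss-gain sites, with a median of 49.8%, lie to the right of the other H3K27ac losses (46.5%) and to the left of the H3K27ac gains with H3K27me3 loss (51.8%).

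Binding words were counted as a feature of sequence the rule did not use. In 300-bp windows at the middle of the shared stretch, the Pu.1 word was in 2.42% of loss-gain sites (2.04 to 2.86) and in 2.59% of windows at the middle of all H3K27ac sites. The GATA word was in 12.2% (11.3 to 13.1) against 13.1%, the Runx word in 22.7% (21.6 to 23.8) against 23.6% and the AP-1 word in 5.83% (5.24 to 6.49) against 5.62%. The median GC of the windows was 50% against 48.3%. At the middle of the H3K27ac site in both sets, the GATA word was in 10.8% (9.98 to 11.6) of loss-gain sites, under the 13.1% of all sites and the 14.2% of other losses, and the Pu.1 word in 2.62%, the Runx word in 24% and the AP-1 word in 5.87%.

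Loss-gain sites were spread over the 19 autosomes, from 463 on chromosome 2 to 137 on chromosome 18. They made up between 3.65% of the H3K27ac losses on chromosome 17 and 6.33% on chromosome 11. Within 5 Mb of Daxx lay 36 of them (0.664%), against 0.688% of the other losses. The sites had 3048 nearest protein-coding genes, of which 1919 had 1 site and 161 had at least 5.

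Irf8, a transcription factor that commits progenitors to monocytes, dendritic cells and B cells and restrains neutrophil output, was the nearest gene of 17, more than any other gene. Of the genes in the lineage and regulator lists, its gene body (chr8:120736358-120756694) with 50 kb on either side held 21 loss-gain sites, ahead of 11 at Ikzf3. They were 21 of the 25 H3K27ac losses in that interval, which also held 18 H3K27ac gains. H3K27me3 was higher in Daxx-KO at 36 sites there and lower at 5. The widest H3K27me3 gain of any loss-gain site, 16700 bp at chr8:120731501-120748200, covered the Irf8 start and had 6858 and 6562 normalized counts in Daxx-KO against 2846 and 3668 in WT. Within this domain lay 5 loss-gain sites and also a H3K27ac gain.

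At the Irf8 start itself (chr8:120736401-120737000), H3K27ac was 15.0 and 90.8 in Daxx-KO against 108 and 109 in WT. At chr8:120744151-120745700, further into the gene, it was 136 and 152 against 321 and 187. The groups did not overlap but Daxx-KO replicate 2 came close to WT at the start. Upstream, at chr8:120714601-120716000, H3K27ac was 54.7 and 139 against 295 and 339, and H3K27me3 75 and 78.2 against 33.6 and 12.8.

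**Figure D3:**
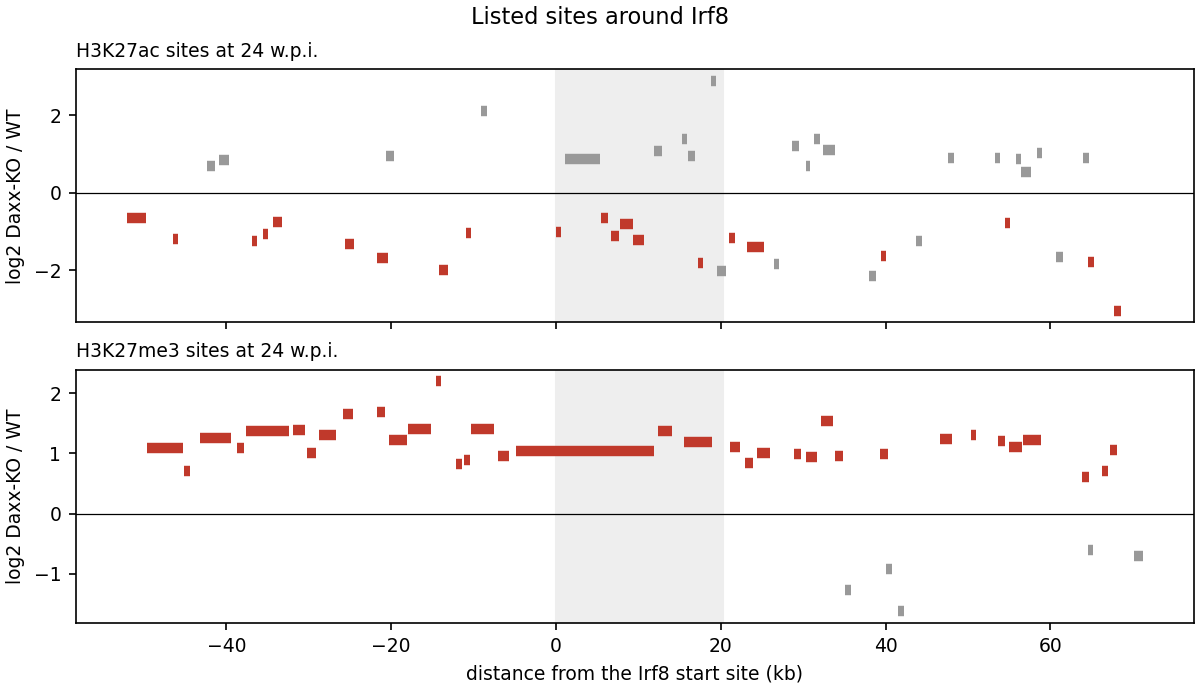
Listed H3K27ac (top) and H3K27me3 (bottom) sites at 24 w.p.i. by distance from the Irf8 start (kb), with the log2 ratio of Daxx-KO to WT group means on the vertical axis. Bars span the sites. Red marks loss-gain sites (top) and H3K27me3 gains (bottom), grey all other listed sites, and the shaded band the gene. H3K27me3 gains run along most of the locus, while 21 loss-gain sites and 18 H3K27ac gains alternate over it.

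By nearest gene, the next were Glis1 with 15 sites, Cdh4 with 14, Sdk2 with 13, and Agpat3, Megf11 and Zcchc24 with 12 each, none of them in the lists. Within the lists and the 50-kb flanks, Ikzf3, which encodes the lymphoid factor Aiolos, had 11 loss-gain sites among 34 H3K27ac losses. Bcl11b, required for T-cell commitment, had 10 among 16, none of them at its promoter. Gfi1b, an erythroid and megakaryocyte repressor, had 10 among 16. Bach2, a repressor that favours B-cell over myeloid fate, had 6 among 62, and Foxo1, which switches on the early B-cell programme, and Zfpm1, the cofactor of Gata1, had 6 each. Of the 267 list genes measured, 85 (31.8%, 26.5 to 37.6) had at least 1 loss-gain site within 50 kb, close to the 29.7% of all autosomal protein-coding genes. None lay within 50 kb of Daxx, Spi1, Fbp1 or Fbp2, the last 2 being gluconeogenic enzymes.

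At promoters, 876 of 20780 protein-coding genes (4.22%) had a loss-gain site within 1 kb of a start site, beside which the lists are read. Any H3K27ac loss was found at 43.1% of these promoters, any H3K27me3 gain at 16.9%. The lists were drawn up with earlier results of these data known, so their counts are descriptions.

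The B-lineage list had 5 of 27 genes (18.5%), namely Bach2, Cd22, Ikzf3, Irf4 and Irf8. Of this list, 16 promoters (59.3%) had a H3K27ac loss and 6 (22.2%) a H3K27me3 gain. At a site inside Bach2 (chr4:32248451-32252100), H3K27ac was 590 and 562 in Daxx-KO against 1282 and 1513 in WT, and H3K27me3 385 and 355 against 141 and 168. At the Irf4 start (chr13:30748501-30751550), a factor of B-cell and plasma-cell differentiation, H3K27ac was 115 and 110 against 585 and 298. H3K27me3 there was 605 and 598 against 434 and 530, the smallest methyl difference of the named genes. At the Ikzf3 promoter, H3K27ac was 10.5 and 46.8 against 108 and 232 and H3K27me3 278 and 211 against 159 and 178. At Cd22, a surface inhibitor of the B-cell receptor, H3K27ac was 13.5 and 26.4 against 40.2 and 64.9. WT acetylation thus ranged widely among these genes.

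The T-lineage list had 2 of 19 (10.5%). Lck, the kinase at the T-cell receptor, had H3K27ac of 3 and 13.2 against 62.5 and 60.1 and H3K27me3 of 26.3 and 32.2 against 10.3 and 12.8 at chr4:129558751-129559450. Tox, a nuclear factor of T-cell development, had H3K27ac of 54 and 84.9 against 219 and 140. The share with any H3K27ac loss was 73.7% in this list.

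The erythroid and megakaryocyte list had 3 of 17 (17.6%). At Slc4a1, the anion exchanger of red cells (chr11:102362501-102366900), H3K27ac was 168 and 167 against 707 and 797, and H3K27me3 132 and 125 against 75.6 and 67.1. Gp9, a subunit of the platelet receptor for von Willebrand factor, had H3K27ac of 13.5 and 10.2 against 65.9 and 34, and H3K27me3 of 23.9 and 61.6 against 6.54 and 8.57. Vwf, which encodes that ligand, had H3K27ac of 45 and 32.2 against 260 and 213, and H3K27me3 of 47.9 and 97.5 against 20.5 and 34.3. Slc4a1 is also one of the erythroid genes given above as a marker.

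The stem and progenitor list had 3 of 27 (11.1%). At Gfi1b (chr2:28621051-28621900), H3K27ac was 62.2 and 80.5 against 144 and 149 and H3K27me3 783 and 853 against 451 and 593. Procr, a surface receptor of long-term stem cells, had H3K27ac of 6.74 and 8.78 against 51.4 and 36.4. Cdkn1c, a cell-cycle inhibitor of quiescent stem cells, had the CpG-richest site of the named genes, at 90 CpG per kb, with H3K27ac of 9.74 and 4.39 against 35.8 and 69.6 and H3K27me3 of 1479 and 1144 against 822 and 928.

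The AP-1 and immediate early list had 2 of 18 (11.1%). Nr4a1, an orphan nuclear receptor induced by stimuli, had H3K27ac of 62.2 and 26.4 against 195 and 161 and H3K27me3 of 23.1 and 25.8 against 1.87 and 8.57. Atf3, a stress-induced factor, had H3K27ac of 592 and 482 against 1666 and 1210. The interferon and nucleic acid sensing list had 2 of 25 (8%), Irf5 and Tlr9. At the Irf5 start, a factor downstream of Toll-like receptors, H3K27ac was 949 and 1107 against 2745 and 2587 and H3K27me3 1986 and 1897 against 1216 and 1471. Tlr9, the receptor for unmethylated CpG DNA, had H3K27ac of 489 and 547 against 1047 and 1034.

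The neutrophil and monocyte list had 1 of 27 (3.7%), namely Klf4, a factor of monocyte differentiation. It had the highest H3K27ac of the list promoters, 911 and 1208 in Daxx-KO against 4463 and 2955 in WT, with H3K27me3 of 1177 and 1132 against 599 and 890. In this list the converse pattern, a H3K27ac gain over a H3K27me3 loss, was found at 16 of 27 promoters (59.3%), against 23.4% of all genes and 5 of 27 (18.5%) in the B-lineage list. It was about as frequent in the stem and progenitor list, at 15 of 27 (55.6%), and was found at 47.4% of the Polycomb list and 44.4% of the AP-1 list. The Polycomb list had 1 of 38 (2.63%), the subunit gene Phc2. The non-blood developmental regulators had 1 of 57 (1.75%), the signalling ligand Wnt5a, where 17.5% had a H3K27me3 gain and 5.26% a H3K27ac loss. The mast-cell and basophil list had 0 of 10.

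**Figure D4:**
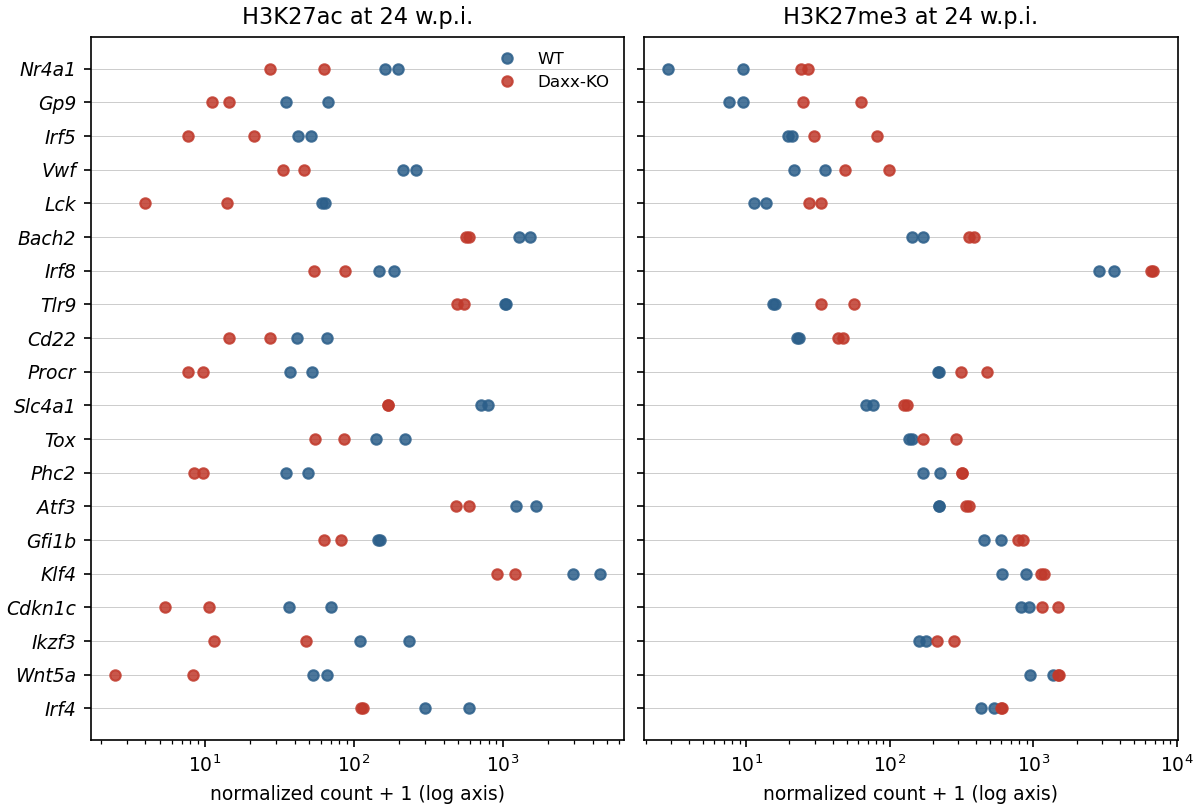
Normalized counts plus 1 (log axis) of H3K27ac (left) and H3K27me3 (right) at the loss-gain site of each of the 20 list genes that had one at its promoter, the site with the larger score where there were several. Each point is 1 library, blue for WT and red for Daxx-KO. Acetyl levels of the groups are well apart at most genes, whereas H3K27me3 of Irf4 and Wnt5a lay close between groups.

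By size of difference the top sites mostly had low counts. Each site was scored by the smaller of its 2 log2 ratios (pseudocount 1). At promoters the largest scores were those of the site nearest to Cep78 (3.50), Maco1 (2.29), Glb1l2 (2.26), Kif1a (2.24), 1700013G24Rik (2.14) and Gbp6 (2.12). At the site nearest to Cep78, H3K27ac was 1.5 and 5.85 against 62.5 and 41.1 and H3K27me3 25.5 and 36.8 against 2.8 and 0. At Kif1a, which encodes a neuronal kinesin, H3K27ac was 48 and 87.8 against 347 and 303 and H3K27me3 48.7 and 47.8 against 6.54 and 11.4. At Gbp6, an interferon-induced GTPase, H3K27ac was 50.2 and 42.5 against 204 and 265 and H3K27me3 71.8 and 102 against 11.2 and 27.1. Among distal sites the scores ran from 2.86 at Kif6, 2.80 at Xrn1 and 2.75 nearest to Atp23 to 2.69 at Ndst3, 2.63 nearest to Mon1b and 2.63 at Adamts17. Kif6 had H3K27ac of 1.5 and 5.85 against 40.2 and 64.9 and H3K27me3 of 33.5 and 46.9 against 9.34 and 0. The lower group was near 0 in most of these.

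Whether the acetyl difference was already there early was read from other mice at 3 w.p.i. The H3K27ac table of that time listed a site at 1004 loss-gain sites (18.5%). H3K27ac was lower in both Daxx-KO libraries at 796 of them and higher at 179, so that 81.6% (79.1 to 83.9) of those with 1 direction were lower. Of all sites in that table, 58.4% were lower and 39.2% higher, or 59.8% lower among those with 1 direction. The other H3K27ac losses were lower in 70.2% (69.5 to 70.8), or in 75.7% when weighted to the GC content of the loss-gain sites. Losses of both marks were lower in 76.1% (74.5 to 77.7). At promoters the share was 89.3% (85.5 to 92.2) of the loss-gain sites and 77.9% (76.6 to 79.1) of the other losses. At distal sites it was 77.6% and 68.2%. Median levels at the listed sites were 6.78 and 3.4 in Daxx-KO against 17.2 and 18.8 in WT. Depth was low, at 1.33 to 2.26 reads per window. With 2 against 2 mice the smallest exact permutation p is 1 in 3, and the shares were not tested against each other.

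Among list genes with a loss-gain site at the promoter, a listed H3K27ac site at 3 w.p.i. was lower at Atf3, Gfi1b, Irf4, Irf5, Klf4, Slc4a1 and Tox, and higher at Irf8. At Slc4a1, H3K27ac at 3 w.p.i. was 5.81 and 4.25 in Daxx-KO against 41.9 and 51.9 in WT. At Gfi1b it was 6.78 and 3.4 against 16.1 and 27.6, and at Irf4 0 and 0.85 against 10.8 and 19.9. At Irf8 it was 37.8 and 72.2 against 23.6 and 26.5, over sites inside the gene that were lower at 24 w.p.i.

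H3K27me3 at the loss-gain sites was also read from DKO mice at 8 w.p.i., which lack Pu.1 as well as Daxx. H3K27me3 was higher in all 3 DKO than in all 3 WT mice at 662 loss-gain sites and lower at 295, that is higher in 69.2% (66.2 to 72) of those with 1 direction. In the whole table, 46.8% of sites were higher and 42.5% lower, or 52.4% higher among those with 1 direction. The other H3K27ac losses were higher in 58.2% (56.5 to 59.9) and losses of both marks in 50.4% (46.8 to 53.9). Scaled to the mean reads per window instead of the authors' constants, the loss-gain share was 62.2% and that of the whole table, 48.3%. Against Daxx-KO mice of the same age, DKO was higher at 613 loss-gain sites and lower at 202 (75.2% higher, 72.1 to 78.1), where the whole table had 55.5% higher and 28.7% lower. Among sites with 1 direction, 65.9% of the whole table were higher. That share was 69.3% (67.7 to 70.9) in the other H3K27ac losses and 65.2% (61.8 to 68.4) in losses of both marks. The 2 comparisons share the DKO libraries. In DKO against WT, the effects of Daxx loss and of Pu.1 loss cannot be told apart. DKO and Daxx-KO mice both lack Daxx, so the comparison between them reads the added loss of Pu.1. Whether Daxx loss alone went with more H3K27me3 at these sites at 8 w.p.i. was not tested. A comparison of 3 against 3 mice cannot give an exact p below 0.1.

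Shares in DKO differed with width. At the 473 loss-gain sites whose H3K27me3 gain spanned at least 2 kb at 24 w.p.i., H3K27me3 was higher in all DKO mice at 118 and lower at 9, or higher in 92.9%. Under 2 kb the share was 65.5%. Counting each broad H3K27me3 gain once, 150 were higher and 18 lower (89.3%). On that count the share lower was 10.7% (6.89 to 16.3), and among broad gains without a H3K27ac loss it was 19.6% (15.7 to 24.2), so that the intervals overlapped. The latter were higher in 80.4%, and all sites of at least 2 kb in the DKO table in 69.8%. This cut-off was set after the values were seen. Without the sites around Irf8 the share was 92.9%, and leaving out each library in turn it ran from 90.6 to 93.4%.

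Of the list genes with a loss-gain site at the promoter, H3K27me3 was higher in DKO at Bach2, Ikzf3, Irf5, Irf8, Klf4, Phc2, Procr and Vwf, and lower at Cd22. At the Irf8 start it was 60, 50.7 and 91.5 in DKO against 27.1, 8.15 and 34.6 in WT. At the Ikzf3 promoter it was 1050, 652 and 635 against 290, 420 and 198. The groups did not overlap at either gene. At Bach2 the site before the start had 105, 83.8 and 223 against 50.7, 35.3 and 61.5. At Irf5, H3K27me3 was 1760, 537 and 396 against 301, 293 and 302, with DKO replicate 1 far above the others. At 122 loss-gain sites (2.25%), H3K27ac was lower at 3 w.p.i. and H3K27me3 higher in DKO at 8 w.p.i., against 0.271% of other H3K27ac losses and 0.492% of losses of both marks. Loss-gain sites were also listed more often in the DKO table, at 20.4% against 3.69% and 7.06%, so these shares are no measure of direction. Among them were sites in Cd86, the costimulatory ligand of antigen-presenting cells, in Foxo1 and at 2 places of the Il6st promoter, the shared receptor of the interleukin-6 family, all picked after their values were seen.

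Pu.1 was compared in the 24 w.p.i. mice themselves. A listed Pu.1 site overlapped 2081 loss-gain sites (38.4%). It was lower in both Daxx-KO mice at 1147 and higher at 688, so 62.5% (60.3 to 64.7) were lower. In the whole Pu.1 table, 51.3% of sites were lower and 46.9% higher. The share was 55.7% (55.1 to 56.3) in the other H3K27ac losses, 58.2% once weighted for GC content, and 59.7% (58.3 to 61.2) in losses of both marks. In the converse set, H3K27ac gains with a H3K27me3 loss, it was 61% (59.7 to 62.4), with an interval that overlapped that of the loss-gain sites. It was 63.7% at promoters and 62.1% at distal sites. Median Pu.1 signal over the sites was 25.9 and 29.2 in Daxx-KO against 44.6 and 46.3 in WT. At the start of Irf8 Pu.1 was 0 in both Daxx-KO libraries and 31.7 and 52.6 in WT, while inside the gene another site had 43.6 and 43.9 against 20.1 and 11.6. At Irf4 both directions were found within the same promoter.

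At 3 w.p.i. the direction of Pu.1 was different. The Pu.1 table of that time was higher in Daxx-KO at 1108 loss-gain sites and lower at 639 (63.4% higher, 61.1 to 65.6). This table as a whole had 54.1% higher and 44% lower, and 54.1% and 32.2% when scaled to the mean reads per window. The other losses were higher in 60.1%, or in 67.3% at matched GC content, so the share of the loss-gain sites was between those. Depth was uneven at 3 w.p.i., with 2.75 reads per window in WT replicate 2 against 33.78 in WT replicate 1 and 11.35 and 11.99 in Daxx-KO. Whether the higher calls depend on the shallow WT library was not tested, nor was the difference between the times.

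H3.3, the histone variant that Daxx deposits, had no prevailing direction at 24 w.p.i. It was lower at 895 and higher at 904 loss-gain sites (49.7% lower, 47.4 to 52.1). In the table as a whole 47% were lower and 51.3% higher, and in the other H3K27ac losses 48.7% of those with 1 direction were lower. At 3 w.p.i. H3.3 was higher at 1038 and lower at 551 (65.3% higher, 62.9 to 67.6), where the table had 57.7% higher and 40.7% lower and the other losses 63.2% higher, or 69.6% at matched GC content, which is above the loss-gain sites. WT replicate 2 of H3.3 at 3 w.p.i. was shallow too, at 3.06 reads per window against 22.88 in WT replicate 1 and 9.43 and 11.27 in Daxx-KO. At Slc4a1, H3.3 at 24 w.p.i. was 4.42 and 3.4 in Daxx-KO against 48 and 96.8 in WT, and at Irf4 4.42 and 18.1 against 104 and 90.2. H3.3 and Pu.1 were both lower at 205 loss-gain sites and both higher at 105, while 216 had higher H3.3 with lower Pu.1 and 134 the converse. In shares of the set, both were lower at 3.78% of loss-gain sites, 2.3% of other H3K27ac losses and 3.76% of losses of both marks, and both higher at 1.94%, 1.73% and 2.41%.

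H3K9me3, the mark of heterochromatin and silenced repeats, was higher in Daxx-KO at 642 loss-gain sites and lower at 319, or lower in 33.2% (30.3 to 36.2). The table as a whole had 50.3% lower and 46.9% higher. The other H3K27ac losses were lower in 34.6% (33.7 to 35.5) and losses of both marks in 30.4% (28.5 to 32.4), so the loss-gain sites did not stand apart from other losses in this mark. At Irf4, H3K9me3 was 71.4 and 95.9 in Daxx-KO against 18.6 and 24.4 in WT. At Slc4a1 the direction was opposite, with 7.65 and 26.1 against 107 and 59. The H3K9me3 tables of 3 and 8 w.p.i. listed 63 and 69 of the sites and are not described further.

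**Figure D5:**
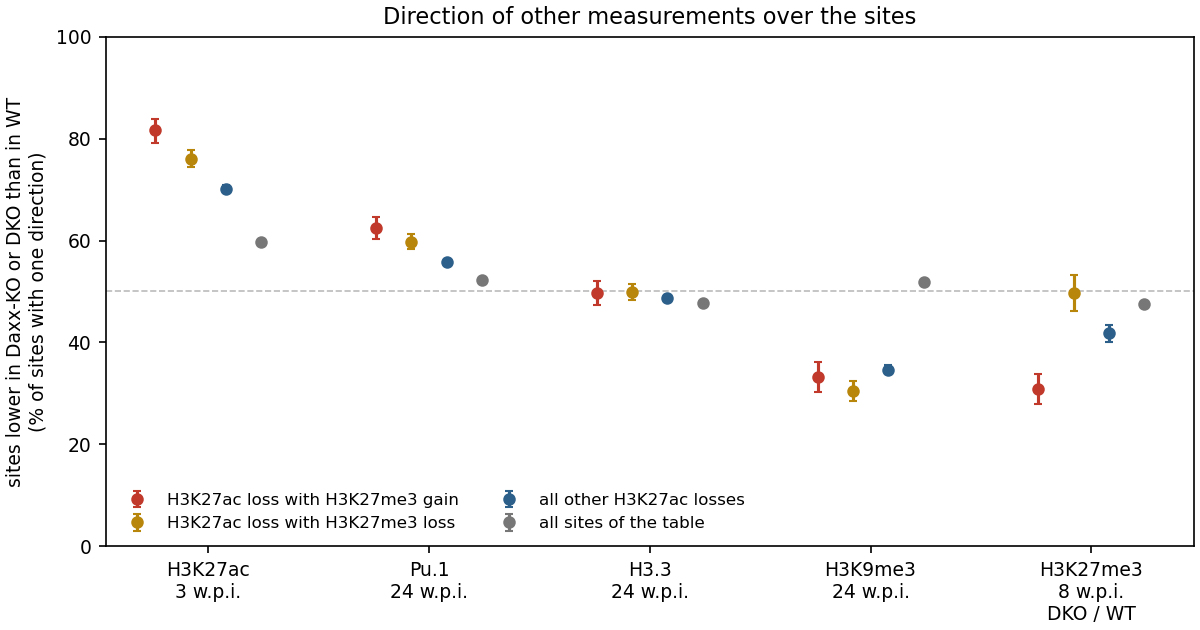
Share of sites lower in Daxx-KO, or DKO for the last column, than in WT (per cent of sites with 1 direction) in 5 other comparisons, for loss-gain sites, H3K27ac losses with H3K27me3 loss, all other H3K27ac losses (which include the former) and all sites of each table. Points are shares, bars 95% Wilson intervals, and the dashed line marks equal numbers. Loss-gain sites are at 81.6% for H3K27ac at 3 w.p.i. and at 30.8% for H3K27me3 in DKO, beyond the 3 other sets in both, and among the other losses for H3.3 and H3K9me3.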

How the data were processed

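CUT&Tag libraries of HSPCs were analysed from 12 tables of differential sites. Per the labels, reads were handled with CASAVA 1.8.4, cutadapt 1.13, STAR 2.5.3 and bedtools and mapped to mm10. The authors ran diffReps 1.55.6 (windows of 600 bp moved by 50 bp, fragment size 100, negative binomial test, window p under 0.0001) and deposited normalized counts per library. Only sites that passed that test are listed, so a site that is not listed says nothing about its level. The 24 w.p.i. tables leave out chromosomes X and Y. The authors' fold changes and p-values were not used. The 8 w.p.i. H3K27me3 comparison of Daxx-KO with WT was not used because its controls were H3K9me3 libraries.

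Sites were compared by the order of library values, overlap of at least 1 bp, GENCODE M21 starts on autosomes and the RefSeq GRCm38.p6 genome, with Python 3.11.15, pandas 2.3.3, numpy 2.4.6, pysam 0.24.0 and Wilson 95% intervals. No test across sites was run. The loss-gain sites and gene lists were chosen with earlier results of these data known. Named genes were the 6 promoter and 6 distal sites with the largest score, list genes with a site at their promoter or most sites within 50 kb, and Daxx, Spi1, Fbp1 and Fbp2. On 20000 simulated sites, 200 of 200 loss-gain sites were recovered. Some marker genes are not reported here, and their groups are given gene by gene.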

Additional observations from a re-analysis of the deposited data

Results flagged for a closer look

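At 179 loss-gain sites H3K27ac was higher in both Daxx-KO than in both WT mice at 3 w.p.i., while it was lower in both at 24 w.p.i. The 2 with the largest scores were the site in Xrn1, at 8.72 and 28.9 in Daxx-KO against 0 and 4.41 in WT, and the site nearest to Atp23, at 25.2 and 22.1 against 9.67 and 0. At 295 loss-gain sites H3K27me3 was lower in all DKO than in all WT mice at 8 w.p.i. and higher in Daxx-KO at 24 w.p.i. Examples were the sites nearest to Kcnd3, with 0, 5.24 and 6.54 in DKO and 14, 17.2 and 12.3 in WT, and to Ntm, with 2.26, 3.49 and 4.36 against 28.9, 14.5 and 20.1. These sites were picked for the opposite order of the groups, and the comparisons used different mice. The difference between comparisons was not tested. Among loss-gain sites only lower or only higher at 3 w.p.i., the 179 were 18.4%, against 40.2% in the whole H3K27ac table. Among those only lower or only higher in DKO at 8 w.p.i., the 295 were 30.8%, against 47.6% in the whole table. The whole tables take in sites of any direction at 24 w.p.i., so their shares are not rates of reversal. Counted in the same way at 3 w.p.i., 29.8% of the other H3K27ac losses and 23.9% of losses of both marks were higher. The H3K27ac reversal was thus less frequent at loss-gain sites than in these sets, without a test. For the H3K27me3 reversal, the share in other H3K27me3 gains of all widths is not given here. The examples rest on low counts.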

How the results depend on the processing

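The number of loss-gain sites was 2710 when both marks had to differ at least 2-fold between group means without a pseudocount (2624 with a pseudocount of 1), and between 3797 and 5729 under the other alternatives. Scaled to the mean reads per window, 4884 sites met the rule, 4860 of them among the 5419. The share at promoters was 17.5% with the 2-fold rule, 20.3% with that scaling, 37.1% within 3 kb and 13.8% within 250 bp of a start, and 22.4 to 24.1% when 1 mouse was left out. The share with higher H3K27me3 in DKO was 72.7% with an overlap of at least 50% of the shorter site and 62.2% with that scaling. Shares for H3.3, Pu.1, H3K9me3 and early H3K27ac stayed inside their intervals in all alternatives run, as did each without any 1 library of its table, an alternative added after the data were seen. All sites had at least 20 normalized counts in the higher group. No paired analysis was possible because the results come from counts of sites and from no test. Read depth limits what is listed, and sites with few reads rest on values near 0.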

Other observations

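Among the loss-gain sites with the largest drop in normalized counts, which also lay at or near Nkx2-6, Lama1, Rpusd4, Ahnak, Tmem51, Dagla, Metrnl and Plxnb2, the following were picked after their values were seen. At the Il10ra promoter, the interleukin-10 receptor, H3K27ac was 926 and 946 in Daxx-KO against 2329 and 2318 in WT, with H3K27me3 of 59 and 133 against 33.6 and 44.3. At Cd83, a marker of mature dendritic cells, H3K27ac was 148 and 164 against 1614 and 1448 and H3K27me3 2100 and 2195 against 1207 and 1648. At Cd86, H3K27ac was 331 and 562 against 1375 and 1738. At Gpr132, a lipid and acid receptor of myeloid and lymphoid cells, it was 698 and 785 against 2210 and 2151, and at the phosphatase gene Dusp3 562 and 486 against 1891 and 1827. At Il10ra, Cd83, Cd86, Gpr132 and Dusp3 a listed H3K27ac site at 3 w.p.i. was lower as well. It was also lower at Tmem51, Dagla and the Ahnak promoter. At the Ahnak site chr19:8978851-8986700 it was higher, and Metrnl and Plxnb2 had both directions. The sites nearest to Nkx2-6, Lama1 and Rpusd4 had no listed H3K27ac site at 3 w.p.i.

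Loss-gain sites of at least 2 kb numbered 210 (3.88%), against 2.13% of the other H3K27ac losses, and 110 (52.4%) lay at promoters. At 3 w.p.i. H3K27ac was lower at 121 and higher at 15 of them (89% lower, 82.6 to 93.2), against 82.3% (80 to 84.4) of the other losses of that width. In DKO at 8 w.p.i. H3K27me3 was higher at 55 and lower at 8 (87.3% higher), against 73.5% of the other losses of that width and 69.8% of all sites of that width in the table.

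The 3 largest H3K27ac values were at sites nearest to Nkx2-6, Lama1 and Rpusd4, none at a start of these genes. They had between 7336 and 15520 normalized counts in WT and between 2443 and 8942 in Daxx-KO, with H3K27me3 of 229 counts at most. Other antibodies also had high counts there at 24 w.p.i. Near Rpusd4, H3K9me3 was 132000 and 127000 in Daxx-KO against 181000 and 155000 in WT. At Lama1 it was 34100 and 22300 against 16100 and 15100, and H3.3 near Nkx2-6 was 4780 and 4920 against 6510 and 4730. Whether the H3K27ac signal at these sites is specific to its antibody was not tested.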
